A study of Mus musculus with 6 samples.

Results

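The autophagy machinery is described here as a set of 49 genes chosen by symbol, from the kinases that start autophagosome formation to the proteins that bring the finished autophagosome to the lysosome. The deposited table lists 12366 genes and holds 48 of the 49. Atg2a was not analysed here, and Atg10 stayed below the minimum level for a test, so 47 genes were tested. The study compared livers of Acss2-/- mice (Acss2-KO, 3 libraries) with livers of wild type mice (WT, 3 libraries). All mice were C57BL/6 males of 22 weeks kept on chow, and all had been fasted for 48 h, so no fed liver is in the comparison. Acss2 encodes an enzyme that makes acetyl-CoA from acetate in the cytosol and nucleus. The labels do not say how the allele was made, and whether the libraries came from separate animals is not stated in them; p-values therefore reflect only how far these libraries scatter, which may be technical in part.

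Autophagy encloses cytoplasm, organelles or lipid in a double membrane that is delivered to the lysosome, and fasted liver is a classical tissue for it. The ULK1 kinase complex starts the process, the class III PI3-kinase complex marks the membrane with the lipid PI3P, and a conjugation system attaches proteins of the ATG8 family (the LC3 and GABARAP proteins) to the growing membrane. Cargo receptors bind both the cargo and ATG8 proteins, and tethers and SNAREs then fuse the closed autophagosome with the lysosome. Much of this control acts on proteins, whereas the values here are levels of mRNA only.

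Acss2 itself was measured at 1.37, 3.56 and 2.35 CPM (reads per 1e6 reads) in Acss2-KO libraries 1 to 3, against 74.0, 81.0 and 73.5 CPM in WT libraries 1 to 3, and values of single libraries follow this order of replicates throughout. Estimated depth was 21.8 to 28.6 M reads (1e6 reads) in the Acss2-KO libraries and 23.4 to 30.8 M in the WT libraries, and 5 CPM stood for 109 to 154 reads. Acss2-KO replicate 1 stood apart: it correlated with the WT libraries at Pearson r of 0.787 to 0.805 across genes, against 0.837 to 0.86 for replicate 3 and 0.887 to 0.923 for replicate 2. It also held 199 CPM of Acta1, the actin of skeletal muscle, against 3.63 CPM or less in every other library, and 62.2 CPM of the epithelial keratin Krt13, against 1.15 CPM or less elsewhere; both genes were chosen after their values were seen. The 8 hepatocyte markers summed to 111118 to 120712 CPM in Acss2-KO libraries and 90276 to 109677 CPM in WT libraries. They went both ways, with 2 higher and 2 lower in Acss2-KO livers (50.0% called, beside 36.5% of all tested genes). Cps1 was 4.66-fold higher (limma adjusted p = 0.00039) and Tat 3.41-fold higher (0.022, lost without Acss2-KO replicate 3 or WT replicate 2 or 3). Ttr was 3.38-fold lower (0.0015) and Serpina1c 1.98-fold lower (0.0071), so the sum gives no direction shared by these markers. The summed markers of other cells were lower in Acss2-KO libraries for 4 lists. All 11 listed Kupffer cell and macrophage markers summed to 136 to 213 CPM in Acss2-KO, against 238 to 702 CPM in WT libraries; 4 of 6 erythroid markers to 37.3 to 61.2 CPM in Acss2-KO, against 151 to 259 CPM in WT; 2 of 6 cholangiocyte markers to 14 to 17.3 CPM in Acss2-KO, against 32.2 to 37.2 CPM in WT; and 4 of 8 leukocyte markers to 2.81 to 5.13 CPM in Acss2-KO, against 7.18 to 19.4 CPM in WT, with 2 of them listed at 0 in every Acss2-KO library. All 10 tested Kupffer cell and macrophage markers had fold changes below 0, and 3 passed (30.0%, beside 36.5% of all tested genes). None of these calls was kept whichever library was left out. WT replicate 2 was the highest library for each of these markers, as for Cd5l at 152 CPM, against 46.9 and 68.6 CPM in WT replicates 1 and 3. The 2 cholangiocyte markers went opposite ways: Spp1 was 4.72-fold lower in Acss2-KO livers (adjusted p = 0.00016), while Sox9 was 2.96-fold higher (adjusted p = 0.0054). The summed endothelial markers (435 to 599 CPM in Acss2-KO, against 344 to 574 CPM in WT) and stellate cell markers (237 to 402 CPM in Acss2-KO, against 276 to 423 CPM in WT) overlapped. Of 9 tested endothelial markers, Lyve1 was 6.62-fold higher (limma adjusted p = 0.0033), Clec4g was 2.05-fold lower (0.0085) and 7 did not pass. Among 8 tested stellate cell markers, Lrat was 4.11-fold lower (adjusted p = 0.00078) and Col3a1 7.34-fold lower (adjusted p = 0.0025), and Des had 72.0, 2.85 and 4.99 CPM in Acss2-KO livers, against 4.26, 5.7 and 8.17 CPM in WT livers, high only in Acss2-KO replicate 1. The part of these cells and of replicate 1 in the autophagy results was not tested, and in bulk liver fewer cells of a type and less RNA per cell cannot be told apart.

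Of the 47 tested genes, 13 passed an adjusted p of 0.05 (limma on log2(CPM + 1), Benjamini-Hochberg over 9355 genes): 3 were higher in Acss2-KO livers and 10 were lower. That is 27.7% of the set, beside 36.5% of all tested genes. The higher share was 6.38% beside 13.4%, and the lower share 21.3% beside 23.1%. Wipi1, Atg16l2 and Map1lc3b rose, and Ulk2, Atg14, Pik3c3, Atg3, Atg4a, Atg4c, Atg7, Atg12, Gabarapl1 and Epg5 fell. The median log2 fold change of the set was -0.15, beside -0.12 over all tested genes, and the range ran from -1.83 for Atg4c to 2.1 for Wipi1. The libraries of the genotypes did not overlap for 21 of the 47 genes (44.7%), beside 52.9% of all tested genes. In the role groups that follow, the first value in parentheses is a log2 fold change, Acss2-KO over WT, unless a percentage or an adjusted p is named. The role groups are small, so their counts are not read as results about a role.

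The balance between directions depended on how the libraries were scaled. With median-of-ratios or trimmed-mean scaling 5 genes were higher and 6 lower, and with quantile scaling 5 and 5; the median over all genes was then -0.01, -0.01 and 0.02. Over all tested genes the split of 1252 higher and 2161 lower became 1688 and 1764, 1706 and 1742, and 1803 and 1615 under the same scalings. Pik3c3, Atg3, Atg7 and Atg12 were no longer past the threshold under any of these scalings, nor Atg4a under quantile scaling, whereas Atg13 and Optn passed it as higher. The split also moved with single libraries: 5 genes were lower without Acss2-KO replicate 1, without Acss2-KO replicate 3 or without WT replicate 2, and 5 were higher without Acss2-KO replicate 2. For 7 of the 13 genes the call was kept whichever library was left out: Wipi1, Atg16l2, Ulk2, Atg14, Atg4c, Gabarapl1 and Epg5. Over all tested genes this held for 1490 of 3413 calls. Acss2-KO replicate 1 lay farthest from the WT libraries for 12 of the 13 genes, and Acss2-KO replicate 2 lay nearest for 9. This order was not counted over all tested genes.

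**Figure D1:**
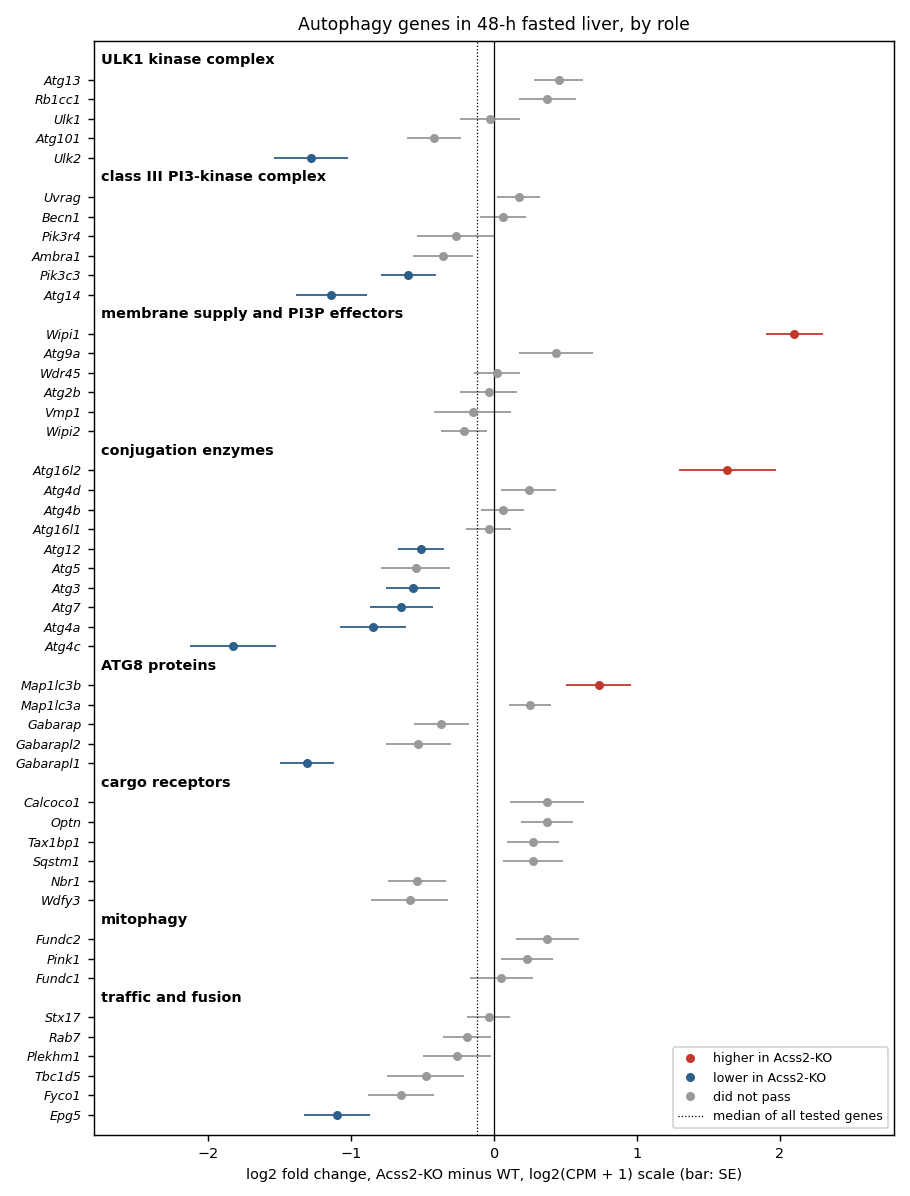
Log2 fold change of each tested autophagy gene (Acss2-KO over WT, log2(CPM + 1) scale, bars SE, 3 libraries a genotype), grouped by role, with genes higher in red, lower in blue and not past the test in grey; the dotted line is the median of all tested genes. Wipi1 at 2.1 and Atg16l2 at 1.63 stand highest, and Atg4c at -1.83 and Gabarapl1 at -1.31 stand lowest.

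Wipi1 had the highest fold change of the set, and Atg14 and Atg3 were picked among the lower genes because their windows hold an E-box. The Atg3 call was lost under every other scaling. The promoters of these 3 genes are printed, a choice that does not tie the motif to lower genes. They come from RefSeq (GRCm38.p6), read 5′ to 3′ on the strand of the gene and ending at the RefSeq start, or 5 bases past it for Atg14; the build is that of the deposited coordinates. The RefSeq start of Wipi1 lies 578 bp inside the gene span as deposited, so the whole Wipi1 stretch is within that span and not upstream of it. That of Atg3 lies 44 bp inside, and that of Atg14 is at the deposited start. They lie at chr11:109611390-109611639 (minus strand) for Wipi1, chr14:47568430-47568684 (minus strand) for Atg14 and chr16:45158579-45158828 (plus strand) for Atg3. Capitals mark the palindrome CACGTG, the E-box core bound by TFEB and TFE3, transcription factors of autophagy and lysosome genes.
Wipi1: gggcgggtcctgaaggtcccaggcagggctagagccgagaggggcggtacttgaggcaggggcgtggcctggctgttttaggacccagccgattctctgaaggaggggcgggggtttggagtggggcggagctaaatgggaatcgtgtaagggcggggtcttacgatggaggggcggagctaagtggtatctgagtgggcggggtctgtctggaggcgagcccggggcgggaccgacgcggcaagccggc
Atg14: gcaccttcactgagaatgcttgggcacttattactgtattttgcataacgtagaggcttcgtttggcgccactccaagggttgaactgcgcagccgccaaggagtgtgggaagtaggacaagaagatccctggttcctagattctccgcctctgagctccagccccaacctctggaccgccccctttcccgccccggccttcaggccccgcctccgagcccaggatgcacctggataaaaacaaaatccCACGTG
Atg3: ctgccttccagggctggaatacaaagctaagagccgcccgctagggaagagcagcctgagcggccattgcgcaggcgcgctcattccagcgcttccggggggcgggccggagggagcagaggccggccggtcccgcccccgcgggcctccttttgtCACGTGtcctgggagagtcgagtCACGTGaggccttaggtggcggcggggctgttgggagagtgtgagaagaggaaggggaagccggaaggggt
The Wipi1 stretch holds no CACGTG, Atg14 has 1 that starts 1 base before the start site, and Atg3 has 2, at 94 and 71 bases before it. Over windows from 250 bases before to 50 after a start, CACGTG was found in 5 of 50 windows (10.0%) of the 41 autophagy genes with a RefSeq window, beside 7.15% of all 32851 windows; being a palindrome, it reads alike on both strands. The other windows with it were those of Atg5, Tbc1d5 and Atg7, and the Atg7 and Tbc1d5 windows belong to starts 27969 bp and 1847 bp inside their genes as RefSeq gives them. In Tbc1d5 the motif begins 23 bases after that start. The longer CLEAR element, CACGTG with GT before it and AC after it, was in none of the 50 windows, beside 0.326% of all windows. The forkhead motif GTAAACA, searched on both strands, was also in none of the 50, beside 3.65%. A letter match is a description and does not show that a factor binds there.

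In the ULK1 kinase complex, 1 of 5 genes passed the test. Ulk2 (ENSMUSG00000004798, chr11:61775649-61855073), a kinase that can act in place of ULK1, was measured at 17.6, 32.2 and 30.9 CPM in Acss2-KO livers, against 71.0, 77.2 and 49.5 CPM in WT libraries. Each Acss2-KO library lay below each WT library, with replicate 1 lowest. The means were 26.9 ± 8.07 CPM in Acss2-KO and 65.9 ± 14.5 CPM in WT livers (SD, n = 3 each), 2.45-fold lower (log2 fold change of -1.28 with an SE of 0.26, adjusted p = 0.0072). Ulk1, its paralogue and the kinase that gives the complex its name, overlapped between genotypes at 131, 96.3 and 98.4 CPM in Acss2-KO livers, against 137, 105 and 91.1 CPM in WT livers. Atg13, the regulatory subunit, had 75.1, 74.5 and 65.8 CPM in Acss2-KO livers, against 58.9, 54.6 and 44.0 CPM in WT livers, and so did not overlap. It missed the threshold (0.45, SE 0.17, adjusted p = 0.069), and passed it with median-of-ratios (0.026), trimmed-mean (0.025) and quantile scaling (0.029). Rb1cc1, the scaffold also called FIP200, averaged 56.7 ± 12.4 CPM in Acss2-KO and 43.0 ± 2.86 CPM in WT libraries (adjusted p = 0.17, and 0.032 without Acss2-KO replicate 2). Atg101, which stabilises Atg13, averaged 17.8 ± 3.35 CPM in Acss2-KO and 24 ± 2.93 CPM in WT livers (adjusted p = 0.11, and 0.045 without Acss2-KO replicate 2).

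Among 6 genes of the class III PI3-kinase complex, 2 were lower and none higher (33.3% called, beside 36.5% of all tested genes). Atg14 (ENSMUSG00000037526, chr14:47540894-47568434), the subunit that directs the complex to sites of autophagosome formation, had 15.2, 7.36 and 8.75 CPM in Acss2-KO livers, against 26.2, 21.9 and 22.0 CPM in WT libraries. The genotypes were apart, and Acss2-KO replicate 1 was the library nearest to WT. Means of 10.5 ± 4.21 CPM in Acss2-KO and 23.3 ± 2.45 CPM in WT livers gave a 2.23-fold lower level (-1.14, SE 0.25, adjusted p = 0.0088). Pik3c3 (ENSMUSG00000033628), the catalytic subunit VPS34, had 12.6, 13.8 and 15.2 CPM in Acss2-KO livers, against 23.9, 24.9 and 16.6 CPM in WT livers. WT replicate 3 lay only just above the Acss2-KO libraries (-0.6, SE 0.19, adjusted p = 0.04). The Pik3c3 call was lost without Acss2-KO replicate 1 (0.10), 2 (0.056) or 3 (0.083) and without WT replicate 1 (0.13) or 2 (0.14). Becn1, the core subunit Beclin 1, averaged 40.4 ± 4.6 CPM in Acss2-KO and 38.8 ± 3.5 CPM in WT libraries, and Uvrag, which takes the place of Atg14 in the endosomal form of the complex, 36.3 ± 3.26 CPM in Acss2-KO and 32.0 ± 1.71 CPM in WT livers. The regulatory kinase-like subunit Pik3r4 (VPS15) averaged 20.6 ± 1.07 CPM in Acss2-KO and 26.4 ± 9.69 CPM in WT livers, and the Beclin 1 regulator Ambra1 21.4 ± 2.1 CPM in Acss2-KO and 28.3 ± 7.06 CPM in WT livers. Neither passed (adjusted p = 0.45 and 0.21), and both passed without WT replicate 3 (0.022 and 0.032), the lowest WT library for 27 of the 47 genes. How often WT replicate 3 was lowest over all tested genes was not counted.

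Membrane supply and PI3P effectors held the highest fold change of the set. Wipi1 (ENSMUSG00000041895, chr11:109573331-109611967), a WD-repeat protein that binds PI3P on the forming autophagosome, had 84.4, 51.6 and 65.3 CPM in Acss2-KO livers, against 14.3, 16 and 13.5 CPM in WT libraries. The lowest Acss2-KO library was more than 3 times the highest WT library, and the WT libraries lay within 3 CPM of each other. The means were 67.1 ± 16.5 CPM in Acss2-KO and 14.6 ± 1.29 CPM in WT livers, 4.6-fold higher in Acss2-KO livers (2.1, SE 0.2, adjusted p = 0.00039, with a highest value of 0.0086 over the alternatives). Its paralogue Wipi2, which recruits Atg16l1 to the membrane, had 82.1, 82.1 and 83.9 CPM in Acss2-KO livers, against 103, 99.0 and 86.8 CPM in WT livers (-0.21, adjusted p = 0.32). None of the other 4 tested genes passed. The lipid scramblase Atg9a averaged 49.5 ± 13.2 CPM in Acss2-KO and 36.7 ± 10.3 CPM in WT livers (0.43, adjusted p = 0.22), the lipid transfer protein Atg2b 43.6 ± 3.93 CPM in Acss2-KO and 45.5 ± 9.72 CPM in WT livers, the PI3P-binding Wdr45 50.0 ± 5.02 CPM in Acss2-KO and 49.4 ± 4.44 CPM in WT livers, and the ER scramblase Vmp1 104 ± 26.2 CPM in Acss2-KO and 116 ± 35.5 CPM in WT livers.

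**Figure D2:**
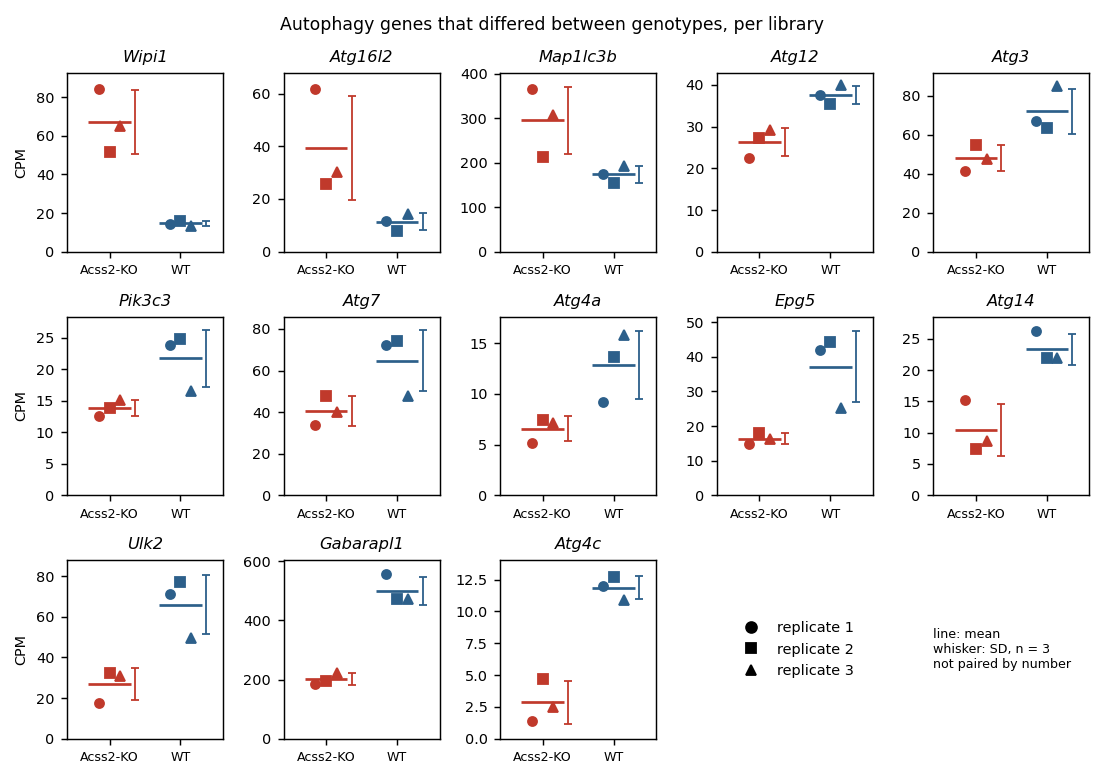
CPM of the 13 called autophagy genes in each library (axes from 0, scaled per gene), Acss2-KO left of WT; points are libraries, lines are means and whiskers SD (n = 3). Wipi1 lies at 51.6 to 84.4 CPM in Acss2-KO and 13.5 to 16 CPM in WT libraries, and Atg4c at 1.37 to 4.69 CPM in Acss2-KO and 10.9 to 12.7 CPM in WT libraries.

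Among the conjugation enzymes, 6 of 10 tested genes passed the threshold (60.0%, beside 36.5% of all tested genes), 5 lower and 1 higher, with a median log2 fold change of -0.53. With median-of-ratios or trimmed-mean scaling 3 of the 10 passed and with quantile scaling 2, the same number as in the ULK1 complex and the ATG8 family under that scaling. The calls of 2 of the 6, Atg4c and Atg16l2, were kept whichever library was left out. Atg7 (ENSMUSG00000030314, chr6:114643097-114860614), the E1 enzyme of both conjugation branches, had 33.6, 47.8 and 40.2 CPM in Acss2-KO livers, against 72.5, 74.0 and 47.8 CPM in WT libraries. The genotypes met at Acss2-KO replicate 2 and WT replicate 3 (-0.65, SE 0.22, adjusted p = 0.046). Atg3 (ENSMUSG00000022663, chr16:45158785-45188538), the E2 enzyme that passes ATG8 proteins to lipid, had 41.6, 54.9 and 47.8 CPM in Acss2-KO livers, against 67.2, 63.6 and 85.0 CPM in WT livers (-0.57, SE 0.19, adjusted p = 0.041). Atg12 (ENSMUSG00000032905), the ubiquitin-like protein joined to Atg5, had 22.5, 27.3 and 29.2 CPM in Acss2-KO livers, against 37.5, 35.5 and 39.9 CPM in WT livers (-0.51, SE 0.16, adjusted p = 0.039). Atg3 and Atg12 did not overlap between genotypes. Each of these calls lay near the threshold and was lost in several fits with 1 library left out. The log2 fold changes stayed below 0 in these fits, at -0.85 to -0.53 for Atg7, -0.66 to -0.44 for Atg3 and -0.58 to -0.4 for Atg12. Atg7 was lost without Acss2-KO replicate 1 (0.13) or 3 (0.12) and without WT replicate 1 (0.14) or 2 (0.15). Atg3 was lost without Acss2-KO replicate 1 (0.12) or 3 (0.12) and without WT replicate 1 (0.086), 2 (0.066) or 3 (0.079), and Atg12 without the same libraries (0.12, 0.075, 0.11, 0.086 and 0.068). Atg5, the partner of Atg12, averaged 40.4 ± 8.98 CPM in Acss2-KO and 59.8 ± 16 CPM in WT libraries (-0.55, adjusted p = 0.098, and 0.046 without Acss2-KO replicate 2). Atg10, the E2 enzyme for Atg12, had 1.6, 3.12 and 3.39 CPM in Acss2-KO livers, against 3.58, 4.38 and 5.5 CPM in WT livers, and was too low to test.

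The ATG4 proteases, which trim ATG8 proteins before conjugation and free them afterwards, gave 2 calls among 4 genes, both lower. Over all tested genes 36.5% were called and 23.1% were lower. Atg4c (ENSMUSG00000028550, chr4:99193934-99259787) had 1.37, 4.69 and 2.51 CPM in Acss2-KO livers, against 12.0, 12.7 and 10.9 CPM in WT libraries. All Acss2-KO libraries were below 5 CPM and all WT libraries above 10 CPM. This was a 4.16-fold lower mean (-1.83, SE 0.3, adjusted p = 0.003). Atg4a (ENSMUSG00000079418, chrX:140956907-141164270) was lower at 6.58 ± 1.24 CPM in Acss2-KO livers, against 12.9 ± 3.36 CPM in WT livers (-0.85, SE 0.23, adjusted p = 0.02), a call lost without Acss2-KO replicate 1 (0.057) or 3 (0.055) or WT replicate 2 (0.06) or 3 (0.071). Atg4b, the most active protease on LC3 in human and mouse cells, averaged 31.6 ± 1.13 CPM in Acss2-KO and 30.2 ± 2.19 CPM in WT livers, and Atg4d 35.2 ± 7.82 CPM in Acss2-KO and 29.2 ± 1.66 CPM in WT livers (0.24, adjusted p = 0.34).

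Atg16l2 (ENSMUSG00000047767, chr7:101263034-101302251), a paralogue of Atg16l1 that canonical autophagy does not require in mouse cells, had 61.8, 25.5 and 30.3 CPM in Acss2-KO livers, against 11.6, 8.0 and 14.4 CPM in WT libraries. Replicate 1 was far above the other Acss2-KO libraries, and the lowest Acss2-KO library was still above the highest WT library. The mean was 3.46-fold higher (1.63, SE 0.34, adjusted p = 0.008, and at most 0.028 over the alternatives). The deposited span of Atg16l2 overlaps that of Fchsd2 by 21372 bp, and the labels do not say whether reads were counted by strand; Fchsd2 averaged 14.9 CPM in Acss2-KO and 26.1 CPM in WT libraries, the opposite direction. Atg16l1, which holds the Atg12-Atg5 conjugate at the membrane, averaged 40.7 ± 4.02 CPM in Acss2-KO and 41.8 ± 2.79 CPM in WT livers.

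Within the ATG8 family, 1 of 5 genes rose and 1 fell (40.0% called, beside 36.5% of all tested genes). Map1lc3b (ENSMUSG00000031812, chr8:121590361-121598760), which encodes LC3B, the usual marker protein of autophagosomes, had 365, 214 and 307 CPM in Acss2-KO livers, against 175, 155 and 193 CPM in WT libraries. Gabarapl1 (ENSMUSG00000030161, chr6:129533160-129542346) had 186, 194 and 224 CPM in Acss2-KO livers, against 556, 474 and 474 CPM in WT livers. Neither gene overlapped between genotypes. Map1lc3b was 1.69-fold higher (0.73, SE 0.23, adjusted p = 0.038) and Gabarapl1 was 2.49-fold lower (-1.31, SE 0.19, adjusted p = 0.0018). The Map1lc3b call was lost without Acss2-KO replicate 1 (0.10) or 3 (0.13) and without WT replicate 1 (0.096), 2 (0.12) or 3 (0.059), whereas that of Gabarapl1 was at most 0.011 over the alternatives. Gabarap averaged 191 ± 15.9 CPM in Acss2-KO and 249 ± 37.4 CPM in WT livers (-0.37, adjusted p = 0.15), Gabarapl2 21.4 ± 3.11 CPM in Acss2-KO and 32.1 ± 9.21 CPM in WT livers (-0.53, adjusted p = 0.094, and 0.048 without WT replicate 1), and Map1lc3a 58.0 ± 3.67 CPM in Acss2-KO and 48.8 ± 2.19 CPM in WT livers (0.25, adjusted p = 0.23).

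Levels of different genes were compared as CPM per kb of exonic length. On that scale Sqstm1 led the whole set in Acss2-KO livers at 217 ± 40.5 CPM per kb, followed by Map1lc3b at 172 ± 44.4, Gabarapl1 at 114 ± 11.5 and Gabarap at 104 ± 8.6; neighbours lay within their SDs of each other except, narrowly, Map1lc3b and Gabarapl1. In WT livers the order was Gabarapl1 at 284 ± 26.8, Sqstm1 at 178 ± 12.0, Gabarap at 135 ± 20.3 and Map1lc3b at 102 ± 10.9, each apart from the next by more than their SDs. Map1lc3b made up 45.3%, 31.7% and 37.2% of the summed level of the 5 ATG8 genes in Acss2-KO livers, against 17.2%, 16.9% and 18.9% in WT libraries. Gabarapl1 made up 22.4%, 27.9% and 26.4% in Acss2-KO livers, against 53.1%, 50.0% and 45% in WT livers. Map1lc3b was the most abundant mRNA of the family in every Acss2-KO library and Gabarapl1 in every WT library. The share of Gabarap was 23.3% ± 3.15 in Acss2-KO and 23.4% ± 2.81 in WT libraries. The summed level was 470, 395 and 481 CPM per kb in Acss2-KO livers, against 594, 538 and 597 CPM per kb in WT livers, without overlap.

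**Figure D3:**
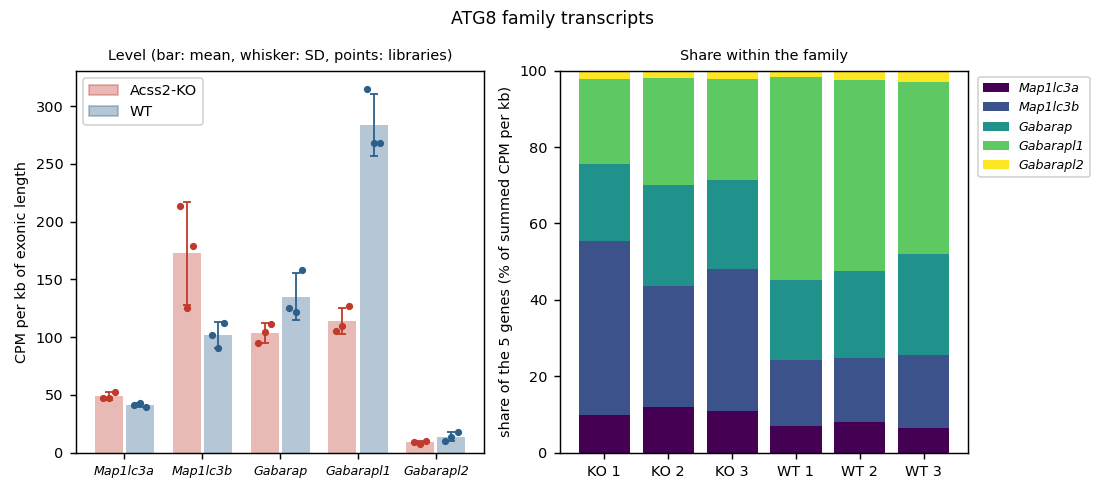
Level of each ATG8 gene in CPM per kb on the left (bars are means, whiskers SD with n = 3, points are libraries) and its share of the family sum in each library on the right, Acss2-KO left of WT. Map1lc3b holds 31.7% to 45.3% in Acss2-KO and 16.9% to 18.9% in WT libraries, and Gabarapl1 22.4% to 27.9% in Acss2-KO and 45% to 53.1% in WT libraries.

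Several called genes have a paralogue, and ratios between paralogues (CPM per kb; pairs chosen after the values were seen, no test) do not depend on the library total. Map1lc3b over Gabarapl1 was 2.02, 1.14 and 1.41 in Acss2-KO livers, against 0.324, 0.338 and 0.419 in WT libraries. Wipi1 over Wipi2 was 1.87, 1.15 and 1.42 in Acss2-KO livers, against 0.255, 0.295 and 0.283 in WT livers. Atg16l2 over Atg16l1 was 3.49, 1.51 and 2.08 in Acss2-KO livers, against 0.661, 0.515 and 0.826 in WT livers. In each of these pairs the ratio was above 1 in every Acss2-KO library and below 1 in every WT library. Where a ratio crossed 1 depended on exonic length, the union of a gene's exons. In plain CPM, Wipi1 at 51.6 and 65.3 lay below Wipi2 at 82.1 and 83.9 in Acss2-KO replicates 2 and 3. Atg16l2 at 25.5 and 30.3 CPM lay below Atg16l1 at 41.9 and 36.3 CPM there, and only replicate 1 had both genes above their paralogues. Map1lc3b stayed above Gabarapl1 in every Acss2-KO library. The fold difference between genotypes does not depend on length. Ulk1 over Ulk2 was 8.5, 3.43 and 3.65 in Acss2-KO livers, against 2.22, 1.57 and 2.11 in WT livers, and Atg4b over Atg4c was 13.1, 3.58 and 7.11 in Acss2-KO livers, against 1.45, 1.37 and 1.41 in WT livers. Acss2-KO replicate 1 had the highest ratio in all 5 pairs and replicate 2 the lowest.

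**Figure D4:**
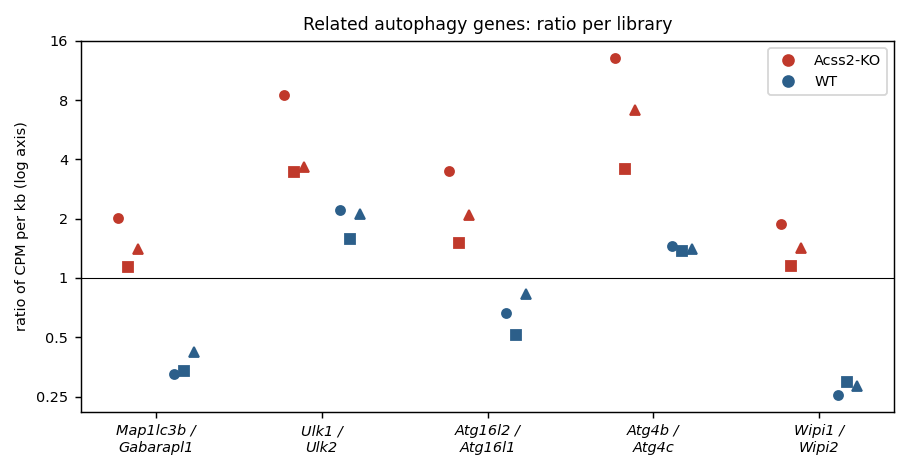
Ratio of paralogues in CPM per kb by library (log axis), Acss2-KO left of WT, for 5 pairs. The genotypes do not overlap in any pair, and Map1lc3b over Gabarapl1 lies at 1.14 to 2.02 in Acss2-KO and 0.324 to 0.419 in WT libraries.

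None of the 6 cargo receptor genes passed the test (0.0%, beside 36.5% of all tested genes). Sqstm1, which encodes p62, had 576, 771 and 838 CPM in Acss2-KO livers, against 626, 617 and 553 CPM in WT libraries (0.27, adjusted p = 0.34), and the genotypes overlapped. Optn, a receptor for mitochondria and bacteria, had 169, 155 and 187 CPM in Acss2-KO livers, against 149, 123 and 124 CPM in WT livers, without overlap. Its log2 fold change was 0.37 (adjusted p = 0.13), and the adjusted p was 0.049, 0.048 and 0.039 with median-of-ratios, trimmed-mean and quantile scaling. Nbr1, which acts with p62 on protein aggregates, had 194, 190 and 165 CPM in Acss2-KO livers, against 309, 286 and 212 CPM in WT livers (-0.54, adjusted p = 0.068, and 0.024 without WT replicate 3). Wdfy3 (ALFY), a scaffold for aggregate clearance, had 43.7, 62.2 and 54.2 CPM in Acss2-KO livers, against 102, 97.0 and 51.6 CPM in WT livers (-0.59, adjusted p = 0.12, and 0.022 without WT replicate 3). Nbr1 was lower in all Acss2-KO libraries, whereas Wdfy3 overlapped through WT replicate 3. Tax1bp1 averaged 204 ± 17.6 CPM in Acss2-KO and 168 ± 13.5 CPM in WT livers (0.27, adjusted p = 0.25) and the ER-phagy receptor Calcoco1 71.3 ± 22.3 CPM in Acss2-KO and 53.8 ± 11.2 CPM in WT livers (0.37, adjusted p = 0.29, and 0.049 without Acss2-KO replicate 2).

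The 3 mitophagy genes also gave no call (0.0%, beside 36.5% of all tested genes). Pink1, the kinase that marks damaged mitochondria, had 282, 224 and 258 CPM in Acss2-KO livers, against 221, 223 and 206 CPM in WT livers (0.23, adjusted p = 0.35). The outer membrane receptor Fundc1 averaged 7.06 ± 1.37 CPM in Acss2-KO and 6.81 ± 1.79 CPM in WT livers, and its relative Fundc2 9.44 ± 1.51 CPM in Acss2-KO and 7.22 ± 2.23 CPM in WT livers (0.37, adjusted p = 0.22).

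Of 6 genes for traffic and fusion, 1 fell (16.7% called, beside 36.5% of all tested genes). Epg5 (ENSMUSG00000039840), the tether that gives autophagosomes their specificity for late endosomes and lysosomes, had 14.8, 18.0 and 16.2 CPM in Acss2-KO livers, against 41.9, 44.3 and 25.3 CPM in WT libraries. No Acss2-KO library reached the lowest WT library, replicate 3. The mean was 2.27-fold lower (-1.1, SE 0.23, adjusted p = 0.0071, and at most 0.032 over the alternatives). Fyco1, an adaptor that links autophagosomes to kinesin, averaged 50.0 ± 12.1 CPM in Acss2-KO and 78.6 ± 15.3 CPM in WT livers (-0.65, adjusted p = 0.053, and 0.023 without Acss2-KO replicate 2 and 0.044 without WT replicate 3). Stx17, the SNARE of the autophagosome, averaged 29.7 ± 1.97 CPM in Acss2-KO and 30.5 ± 2.68 CPM in WT livers, and the small GTPase Rab7 156 ± 15.5 CPM in Acss2-KO and 178 ± 12.1 CPM in WT livers. Tbc1d5, which switches Rab7 off, averaged 13 ± 3.88 CPM in Acss2-KO and 18.5 ± 4.97 CPM in WT livers (-0.48, adjusted p = 0.19), and the lysosomal adaptor Plekhm1 18.6 ± 2.45 CPM in Acss2-KO and 23.1 ± 7.27 CPM in WT livers (-0.26, adjusted p = 0.41).

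The authors' deposited table, whose test the labels do not name, called 8 of the 48 genes (16.7%), beside 27.2% of the 12366 genes listed. In the authors' deposited table Wipi1 (log2 fold change 2.36, adjusted p = 1.2e-08), Atg16l2 (1.94, 3.6e-06) and Map1lc3b (0.9, 0.047) were higher. Lower in the authors' deposited table were Atg4c (-1.9, 1.1e-05), Gabarapl1 (-1.16, 0.0076), Ulk2 (-1.14, 0.0097), Epg5 (-1.03, 0.022) and Atg14 (-1.0, 0.028). All 8 were also called in the same direction by limma.

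Outside the set, 69 further genes of the pathway were listed, and 62 were tested. Of these, 7 were higher and 19 lower (41.9%, beside 36.5% of all tested genes), with a median of -0.15. With median-of-ratios, trimmed-mean and quantile scaling the counts were 10 and 16, 10 and 16, and 10 and 14. Single libraries moved the higher count to 1 without Acss2-KO replicate 3 or WT replicate 2 and to 2 without WT replicate 1, and the lower count to 10, 11 and 12 without Acss2-KO replicate 3, WT replicate 2 and WT replicate 1. By list, 3 other autophagy genes were higher and 6 lower of 17, 1 lysosome gene was higher and 8 lower of 25, and 3 upstream regulators were higher and 5 lower of 20. Rubcn (listed as 1700021K19Rik), which encodes Rubicon, an inhibitor of autophagosome maturation, had 3.36, 7.78 and 4.82 CPM in Acss2-KO livers, against 26.7, 29.2 and 18.3 CPM in WT libraries (-2.06, SE 0.28, adjusted p = 0.0015). Snap29, the SNARE partner of Stx17, had 14.4, 14.2 and 15.2 CPM in Acss2-KO livers, against 35.3, 37.8 and 31.8 CPM in WT livers (-1.2, adjusted p = 0.0012). Stbd1, which binds glycogen for autophagy, had 30.9, 37.8 and 45.9 CPM in Acss2-KO livers, against 135, 121 and 142 CPM in WT livers (-1.79, adjusted p = 0.0006). These 3 were lower in every Acss2-KO library, and each call was kept whichever library was left out. The lysosomal protease gene Ctsl went the other way, at 3875, 1541 and 2487 CPM in Acss2-KO livers, against 666, 600 and 861 CPM in WT livers (1.81, SE 0.33, adjusted p = 0.0045). Ctsl was the only higher lysosome gene. The 8 lower ones were Hexa (-0.95, adjusted p = 0.0058), Neu1 (-0.85, adjusted p = 0.0055), Ctsb, Lamp2, Glb1, Lipa, Npc2 and Atp6v1a. Of these, only Hexa and Neu1 kept their calls whichever library was left out.

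**Figure D5:**
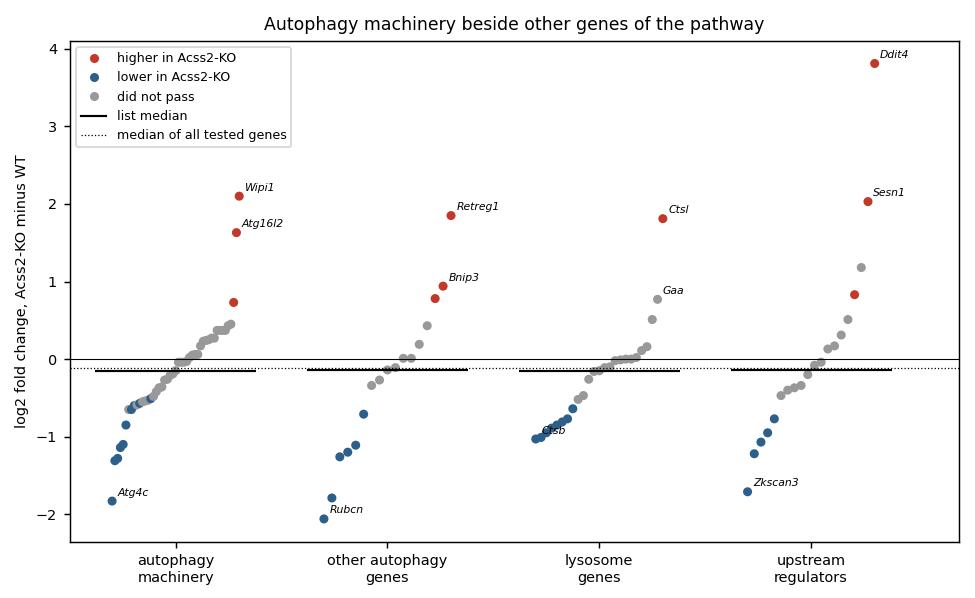
Log2 fold changes (Acss2-KO over WT, log2(CPM + 1) scale) of the tested genes of the autophagy set and of the 3 further lists; points are genes in order of fold change, coloured by call, solid lines are list medians and the dotted line is the median of all tested genes, -0.12. Medians lie close together, from -0.15 to -0.14, and Rubcn at -2.06 and Ctsl at 1.81 stand at the ends of their lists.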

How the data were processed

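Liver mRNA was sequenced from TruSeq libraries made from total RNA, per the labels' protocols. The authors deposited log2 CPM rounded to 2 decimals, with values under 1 CPM listed at 0, as read from the values, and their own log2 fold changes and adjusted p-values. The deposited mean columns (a score with no stated unit) were not used. The submitters' processing notes name Bowtie 0.12.2 and mm8 without saying what each was used for; the deposited coordinates follow GRCm38, with gene starts a median of 8 bp apart over 11621 genes. The sources used here do not give the annotation, the strand setting or how multiply matching reads were treated, so overlapping and near-identical genes are uncertain. Depth was estimated from the steps between low values; whole reads could not be recovered, so no count model was used.

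Genes averaging 5 CPM or more were tested on log2(CPM + 1), with a pseudocount of 1 CPM and listed zeros at 1 CPM, in limma 3.58.1 (R 4.3.3, statmod 1.5.0; robust, with a variance trend). Acss2-KO was set against WT over 6 libraries without covariates, with a threshold of 0.05 after Benjamini-Hochberg adjustment over the whole table. The scale understates changes of low genes. CPM per kb used GENCODE union exons. Tables and plots used Python 3.11.15, pandas 2.3.3, numpy 2.4.6 and matplotlib 3.10.9. The procedure was tested on simulated data with independent noise and no outlying library. That test therefore does not bear on how single libraries moved the calls. Genes and lists were chosen with earlier results of these data known; each set gene may be named, and every called gene of the further lists. Alternatives were other pseudocounts, scalings, filters, left-out libraries and a replicate block.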

Additional observations from a re-analysis of the deposited data

How the results depend on the processing

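Among the 36 autophagy genes with a log2 fold change of at least 0.2 in size, the 26 called genes of the further lists and Acss2, 936 values were computed under the alternatives; 784 kept direction and side of the threshold, 134 were no longer past it, 18 newly passed it and 0 changed sign. Of the 11 autophagy genes under 0.2, 8 changed sign in at least 1 alternative, so no direction is given for them. Higher and lower autophagy genes, 3 and 10, became 5 and 6 with median-of-ratios scaling, 5 and 6 with trimmed-mean scaling and 5 and 5 with quantile scaling. At a minimum of 20 CPM 5 were lower, with 40 genes tested and 4 of the 10 lower genes no longer tested. Leaving out Acss2-KO replicate 1 together with WT replicate 2 gave 5 lower genes; the further lists then gave 4 and 12, and all genes 715 and 1319. All genes gave 741 and 1112 at 20 CPM, where fewer were tested. Leaving out 1 library gave 2 to 5 higher and 5 to 12 lower autophagy genes, 1 to 10 and 10 to 19 in the further lists, and 519 to 1608 and 1239 to 2420 over all genes. Over all genes, 802, 519 and 780 were higher without Acss2-KO replicate 1, Acss2-KO replicate 3 and WT replicate 2, and 1239, 1302 and 1346 were lower without Acss2-KO replicate 3, WT replicate 1 and WT replicate 2. Pseudocounts of 0.5 and 5 CPM and no filter gave 3 higher and 10 lower autophagy genes. The cause of these moves was not tested where the construction does not show it. The replicate numbers gave no sign of pairing: deviations of same-numbered libraries correlated at -0.1, -0.14 and 0.09. Those of different-numbered libraries correlated at -0.15 to 0.18. With 3 libraries a genotype, these values cannot exclude a paired design. In a fit that took the replicate block into account, 3 autophagy genes were higher and 9 lower; Atg3 (0.052) and Atg12 (0.055) were not past the threshold and Fyco1 (0.041) was. A level of 5 CPM stands for at least 109 reads; lower genes such as Atg10 were not tested.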

Other observations

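Among called regulators of autophagy outside the set, Zkscan3, reported as a repressor of autophagy and lysosome genes in human cells, had 23.4, 28.4 and 22.3 CPM in Acss2-KO livers, against 103, 60.5 and 89.9 CPM in WT libraries (log2 fold change -1.71, limma adjusted p = 0.0012). Ppara, the nuclear receptor of the fasting response, had 104, 105 and 105 CPM in Acss2-KO livers, against 251, 276 and 154 CPM in WT livers (-1.07, adjusted p = 0.0093). Prkaa1, a catalytic subunit of the energy sensor AMPK, had 3.29, 5.06 and 3.39 CPM in Acss2-KO livers, against 10.1, 11.3 and 9.45 CPM in WT livers (-1.22, adjusted p = 0.003). These 3 genes did not overlap between genotypes, and each call was kept whichever library was left out. Prkaa2, the other catalytic subunit of AMPK, was more abundant and went the other way without overlap. It had 93.1, 86.2 and 116 CPM in Acss2-KO livers, against 76.6, 70.5 and 59.3 CPM in WT livers. Prkaa2 missed the threshold (0.51, limma adjusted p = 0.061) and passed it with median-of-ratios (0.021), trimmed-mean (0.021) and quantile scaling (0.02). Tfeb, the transcription factor of the CLEAR element, averaged 6.64 ± 1.13 CPM in Acss2-KO and 8.85 ± 1.38 CPM in WT libraries (-0.37, adjusted p = 0.17), and Tfe3 26.9 ± 1.6 CPM in Acss2-KO and 29.0 ± 5.68 CPM in WT livers. Ddit4, an inhibitor of the growth kinase mTORC1, spread widely at 347, 23.6 and 107 CPM in Acss2-KO livers, against 5.46, 4.56 and 8.4 CPM in WT livers (3.81, SE 1.03, adjusted p = 0.043), without overlap. Its call was lost without Acss2-KO replicate 3 (0.13) and without WT replicate 1 (0.14) or 2 (0.15). It was also lost with a pseudocount of 5 CPM (0.062), with the replicate block (0.093) and with Acss2-KO replicate 1 and WT replicate 2 left out together (0.25). The remaining called regulators went both ways. Sesn1 (2.03, limma adjusted p = 0.044) and Foxo1 (0.83, adjusted p = 0.045) were higher. Deptor (-0.77, adjusted p = 0.022) and Nr1h4 (-0.95, adjusted p = 0.018) were lower. Each of these calls was lost without Acss2-KO replicate 3, among other libraries.

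Of 7 tested receptors for mitochondria and ER outside the set, 3 were higher, 1 was lower and 3 did not pass. Over all tested genes 13.4% were higher and 23.1% lower. The receptors were taken from a list chosen with earlier results known, so their count is not read as a result about them. The 4 calls were each lost without some single library. Retreg1 (listed as Fam134b), an ER-phagy receptor, had 556, 141 and 362 CPM in Acss2-KO livers, against 77.2, 71.0 and 107 CPM in WT livers (1.85, limma adjusted p = 0.02, and 0.072 without Acss2-KO replicate 3, 0.07 without WT replicate 1 and 0.075 without WT replicate 2). The mitophagy receptor Bnip3 was higher by 0.94 (adjusted p = 0.018, and 0.061 without Acss2-KO replicate 3, 0.068 without WT replicate 1 and 0.069 without WT replicate 2). Its paralogue Bnip3l was higher by 0.78 (adjusted p = 0.019, and 0.053 and 0.085 without Acss2-KO replicates 1 and 3, and 0.069 and 0.07 without WT replicates 1 and 2). With Acss2-KO replicate 1 and WT replicate 2 both out, the adjusted p was 0.13 for Bnip3 and 0.12 for Bnip3l. Fkbp8, another mitophagy receptor, had 158, 239 and 181 CPM in Acss2-KO livers, against 307, 282 and 350 CPM in WT livers (-0.71, adjusted p = 0.03, and 0.084 and 0.11 without Acss2-KO replicates 1 and 3, and 0.081, 0.059 and 0.067 without WT replicates 1, 2 and 3). Its call was also lost with median-of-ratios (0.058), trimmed-mean (0.06) and quantile scaling (0.067). The ER-phagy receptors Tex264 (-0.34, adjusted p = 0.16) and Sec62 (adjusted p = 0.54) and the mitophagy receptor Bcl2l13 (adjusted p = 0.46) did not pass.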
